A study of Homo sapiens with 9 samples.

Results

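Numbered LINC genes are genes of long intergenic noncoding RNAs whose symbol is LINC and a number only. The count tables of LIM1215 cells listed 2184 such symbols among 58920 genes, of which 628 had a count in at least 1 of 9 libraries and 1556 had none. The 118 LINC genes described here are those with at least 90 counts summed over the 9 libraries, so they were chosen by their summed counts, and their abundance is a description. They are 118 of the 13412 genes that reached this sum.

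Long intergenic noncoding RNAs are made by RNA polymerase II, mostly spliced and often polyadenylated, and do not carry a long conserved reading frame. Some act in the nucleus on genes close to their own, others act elsewhere as scaffolds, guides or decoys for proteins and small RNAs, and for many no function is known. A number in place of a descriptive name means that the gene was named for its intergenic position alone, and several of these genes have been studied in colorectal and other epithelial cancers.

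LIM1215 is a RAS wild-type colorectal cancer cell line that is sensitive to cetuximab, an antibody against the EGF receptor. LIM1215-R1 and LIM1215-R2 are mixed, non-clonal populations that were derived from it separately under rising concentrations of this antibody, while LIM1215-parental cells were kept without the antibody. All libraries were made from cells in basal, untreated culture, with 3 libraries of poly(A) RNA per line that the study describes as technical replicates. P-values therefore measure the spread between these libraries, and a difference of culture or harvest cannot be told apart from a difference between the lines.

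Total counts lay between 13737416 and 18725014 per library, and the labels gave no batch. The 9 colorectal epithelial markers summed to between 12600 and 16400 CPM, counts scaled to the size of the library, in every library. Those of fibroblasts reached at most 2.18 CPM and those of endothelium at most 0.722 CPM, while PTPRC and CD3E of leukocytes had no count. In bulk RNA, fewer cells of a kind and less RNA per cell cannot be told apart.

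The promoters of 5 LINC genes are shown first, since the text returns to these genes. LINC01234, LINC00941, LINC00674 and LINC02747 passed the study's threshold in both resistant lines, and LINC02320 passed it in LIM1215-R2. The sequences come from RefSeq on GRCh38.p14, hold 250 bases before and 50 after an annotated start, and run 5′ to 3′ on the strand of the gene. Capitals mark matches to the motifs named for each gene, searched on both strands.

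LINC01234 lies on the minus strand of chromosome 12, and its window is chr12:113773634-113773933. Capitals mark the CCAAT box.
LINC01234: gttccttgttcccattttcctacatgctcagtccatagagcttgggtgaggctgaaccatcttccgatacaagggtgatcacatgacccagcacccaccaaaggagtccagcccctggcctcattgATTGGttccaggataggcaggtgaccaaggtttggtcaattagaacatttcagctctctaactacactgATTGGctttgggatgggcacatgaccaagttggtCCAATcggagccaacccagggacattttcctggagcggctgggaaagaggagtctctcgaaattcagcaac

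LINC00941 lies on the plus strand of the same chromosome, and its window is chr12:30795431-30795730. Capitals mark the GC box.
LINC00941: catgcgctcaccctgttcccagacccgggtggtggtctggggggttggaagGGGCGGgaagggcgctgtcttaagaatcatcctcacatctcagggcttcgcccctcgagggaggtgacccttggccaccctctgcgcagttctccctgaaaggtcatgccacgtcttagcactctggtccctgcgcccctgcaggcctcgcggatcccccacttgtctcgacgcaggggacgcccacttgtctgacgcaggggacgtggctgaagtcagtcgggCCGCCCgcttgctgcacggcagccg

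LINC00674 lies on the plus strand of chromosome 17, and its window is chr17:68101305-68101604. Capitals mark the GC box.
LINC00674: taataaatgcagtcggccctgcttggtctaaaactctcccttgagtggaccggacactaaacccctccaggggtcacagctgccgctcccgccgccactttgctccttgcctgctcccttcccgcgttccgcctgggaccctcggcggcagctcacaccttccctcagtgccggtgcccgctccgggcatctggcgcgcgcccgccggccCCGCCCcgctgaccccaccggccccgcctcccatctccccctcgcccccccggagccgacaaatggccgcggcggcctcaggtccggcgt

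LINC02747 lies on the minus strand of chromosome 11, and its window, chr11:69479908-69480207, is inside the annotated span of the gene. Capitals mark a GC box and an AP-1 motif.
LINC02747: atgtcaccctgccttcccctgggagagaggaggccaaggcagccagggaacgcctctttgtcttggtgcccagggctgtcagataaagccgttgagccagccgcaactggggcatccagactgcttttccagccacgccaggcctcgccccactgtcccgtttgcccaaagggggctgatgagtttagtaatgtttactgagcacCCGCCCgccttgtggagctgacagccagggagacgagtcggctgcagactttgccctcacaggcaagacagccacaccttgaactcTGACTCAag

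LINC02320 lies on the minus strand of chromosome 14, and its window is chr14:101731257-101731556. Capitals mark an AP-1 motif.
LINC02320: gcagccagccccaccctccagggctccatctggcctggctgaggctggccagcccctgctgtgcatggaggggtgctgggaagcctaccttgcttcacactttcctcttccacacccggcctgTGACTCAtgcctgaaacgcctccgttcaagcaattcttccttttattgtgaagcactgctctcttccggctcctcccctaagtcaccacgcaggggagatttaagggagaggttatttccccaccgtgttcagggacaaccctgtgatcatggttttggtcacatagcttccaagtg

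Promoter windows were matched for 95 of the 118 LINC genes and for 7 of the 12 called in either resistant line. The AP-1 motif TGANTCA, bound by the FOS and JUN factors that act below the MAPK cascade, stood in 7 of the 95 windows (7.37%) and in 7.71% of the 35116 promoters of the annotation. The GC box GGGCGG stood in 50.5% of the LINC windows and in 15786 of all, CCAAT in 47.4% and 34.6%, and TATAAA in 14.7% and 11.5%. CTTTGAT of the TCF/LEF factors was found in 1 LINC window, that is 1.05% against 2.62% of all, and the E box CACGTG in 8.42% against 7.26%. Among the 7 windows of called genes, 2 held the AP-1 motif, 4 the GC box, 1 CCAAT and 1 TATAAA, the last in LINC00659. These matches are a description of the letters in the windows.

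Of the 118 LINC genes, 115 matched a RefSeq gene by symbol and 3 by an older name. RefSeq gives 117 of them as lncRNA, while LINC00672 is now the protein-coding gene LASP1NB. They lay on 23 chromosomes, with 16 on chromosome 1 and 10 on chromosome 17. The nearest protein-coding gene overlapped 11 of them, lay within 100000 bases of 91 and farther away for 16, and 7 had their nearest coding start within 2000 bases, on the other strand and pointing away from their own. None of the 12 called genes overlapped a coding gene.

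The LINC genes took a small share of the RNA, which was higher in each LIM1215-R2 library than in any library of the other lines. They held between 0.0498% and 0.0556% of the counts of a library, and their summed level was 505 ± 10.9 CPM in parental cells, against 512 ± 6.76 for LIM1215-R1 and 548 ± 7.38 for LIM1215-R2 (SD, n = 3). Counts over the 9 libraries ranged from 91 to 5386 with a median of 297, and each of the 118 genes had a count in each library. Precision followed the counts: the median standard error (SE) of a log2 fold change of LIM1215-R1 against parental was 0.321 for the 60 genes with fewer than 300 counts, 0.186 for the 37 with 300 or more but under 1000 and 0.117 for the 21 with 1000 or more.

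The 10 most counted were LINC01000, LINC00673, LINC02693, LINC00641, LINC00205, LINC01224, LINC00674, LINC01128, LINC01963 and LINC01234, and together they made up 37.5% to 43.6% of the summed level. Levels of different genes were compared only per kilobase of exon, with lengths from GENCODE release 44 for the 97 genes whose model there covered at least 50% of the RefSeq span. On this scale LINC02320 was highest at 13.0 CPM per kilobase, on an annotated exon length of only 454 bases. LINC00941 followed with 5.37, LINC01224 with 4.90, LINC01963 with 4.57 and LINC00641 with 4.04 CPM per kilobase. The median of the 97 genes was 0.848 CPM per kilobase.

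The question asked of each resistant line was which genes differed from the parental line. Adjusted p are those of the quasi-likelihood test of edgeR, corrected by the Benjamini-Hochberg method over 19102 genes. A gene was called when this p was at most 0.01 and the log2 fold change was at least 1.5 in either direction, and rose or fell is written of genes that pass this p at any size. In LIM1215-R1, 7 of the 118 LINC genes were called (5.93%), 5 higher and 2 lower, against 5.14% of all genes tested (3.24% higher and 1.91% lower) and 4.99% of the genes with at least 90 counts. In LIM1215-R2, 11 were called (9.32%), 7 higher and 4 lower, against 4.82% (2.63% higher and 2.19% lower) and 4.83%. Both comparisons used the same parental libraries.

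At any size, 34 LINC genes passed in LIM1215-R1, of which 15 rose and 19 fell, which is 28.8% against 27.3% of all genes tested (14.0% and 13.4% in the respective directions). In LIM1215-R2, 27 passed, of which 17 rose and 10 fell, which is 22.9% against 23.8% (12.3% and 11.6%). The share that passed was thus near that of all genes in both lines, and below the 36.6% and 31.9% of the genes with at least 90 counts. The median log2 fold change of the LINC genes was -0.10 in LIM1215-R1 and -0.05 in LIM1215-R2, beside -0.01 and 0.00 over all genes. A LINC gene with fewer than 300 counts passed in LIM1215-R1 only from a log2 change of 0.96 upward, while one with 1000 counts or more passed from 0.37.

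The 12 genes called in either line were 8 that were higher and 4 that were lower than in parental cells. Of these, 4 higher and 2 lower ones were called in both lines, beside 2.08% and 1.45% of all genes, and none in opposite directions. The 6 made up 85.7% of the LINC calls for LIM1215-R1 and 54.5% for LIM1215-R2, shares that rest on few calls. Over all genes tested, 675 were called in both lines in the same direction, of 982 called in LIM1215-R1 and 921 in LIM1215-R2. At any size 13 rose and 9 fell in both lines, beside 9.53% and 8.51% of all genes.

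**Figure D1:**
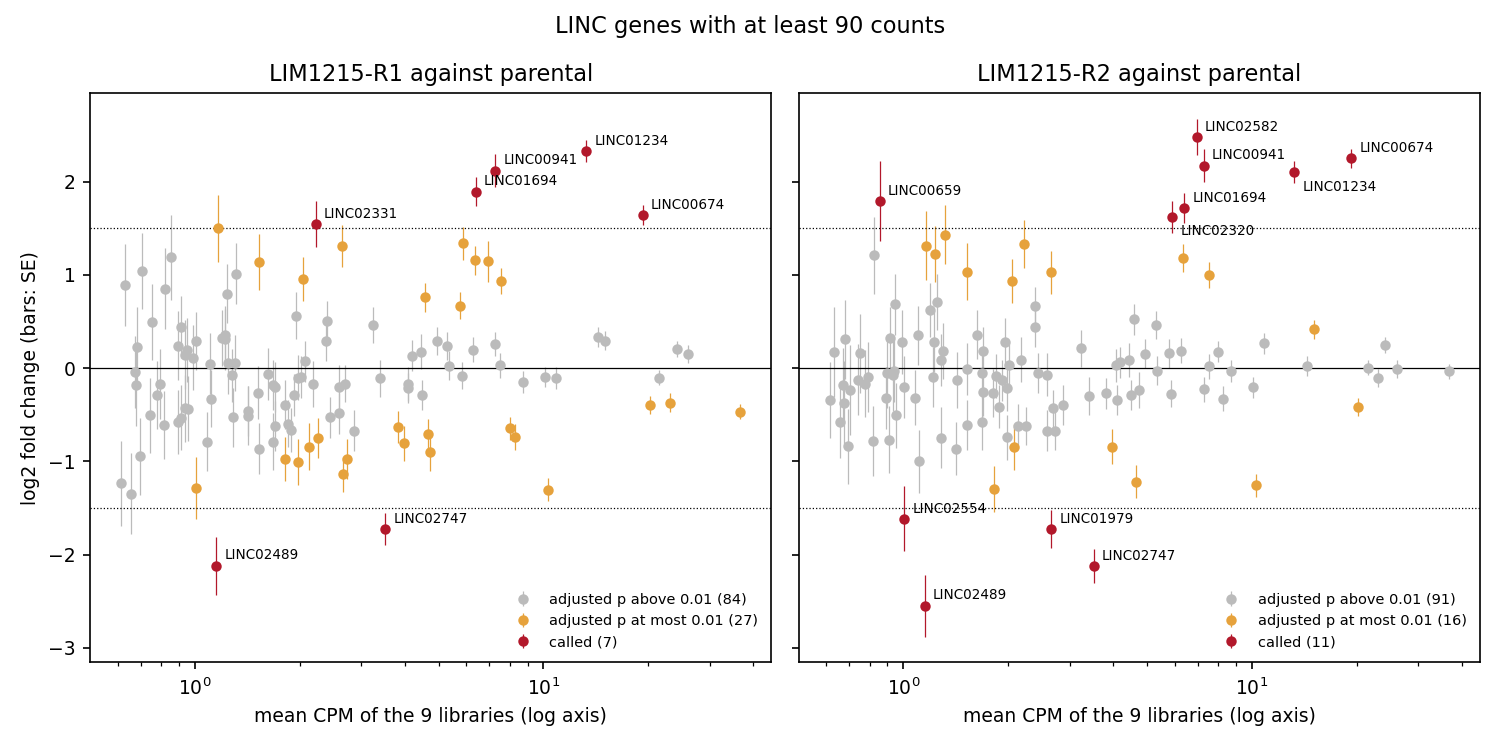
Log2 fold change of 118 LINC genes against parental cells (y axis, bars show the SE) by mean CPM of the 9 libraries (x axis, log scale), for LIM1215-R1 (left) and LIM1215-R2 (right), with dotted lines at 1.5 and -1.5. The 7 and 11 called genes are labelled, and the genes of low CPM scatter most around 0 with the longest bars.

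LINC01234 had the largest increase in LIM1215-R1. It is studied as a growth-promoting RNA in gastric, colorectal and breast cancer. Its CPM was 3.60, 3.68 and 4.20 in the parental libraries, 18.8, 17.9 and 21.2 in LIM1215-R1 and 16.1, 17.2 and 16.4 in LIM1215-R2. The parental libraries lay below every resistant one. It rose by a log2 fold change of 2.32 ± 0.118 (SE) in LIM1215-R1 (adjusted p = 4.51e-15) and 2.10 ± 0.120 in LIM1215-R2 (adjusted p = 5.69e-14), or 5.01-fold and 4.30-fold. The gene spans chr12:113744577-113773683, with its promoter shown above.

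LINC00941, also called lncRNA-MUF, is studied as a driver of invasion in colorectal cancer. Its CPM was 2.83, 1.95 and 1.84 in parental cells, 11.2, 9.41 and 8.20 in LIM1215-R1 and 8.62, 10.96 and 10.4 in LIM1215-R2. The resistant lines overlapped each other and stood apart from the parental line. The log2 fold change was 2.12 ± 0.176 in LIM1215-R1 (adjusted p = 1.34e-10) and 2.17 ± 0.175 in LIM1215-R2 (adjusted p = 7.34e-11). The difference between the resistant lines was 0.05 on the log2 scale, with a 95% interval from -0.23 to 0.34.

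LINC00674 was the most counted of the called genes. Its CPM was 6.49, 6.29 and 6.67 in parental cells, 20.4, 21.8 and 18.8 in LIM1215-R1 and 29.0, 33.8 and 30.1 in LIM1215-R2, so that the 3 lines did not overlap. It rose by 1.64 ± 0.104 (adjusted p = 5.33e-13) and 2.25 ± 0.0996 (adjusted p = 2.33e-16) on the log2 scale.

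LINC01694 at chr21:45593654-45603056 had 2.60, 2.38 and 2.21 CPM in parental cells, 7.67, 9.29 and 9.76 in LIM1215-R1 and 7.55, 7.43 and 8.62 in LIM1215-R2. The lowest resistant library was above the highest parental one. The log2 fold changes were 1.89 ± 0.157 (adjusted p = 1.35e-10) and 1.71 ± 0.160 (adjusted p = 1.36e-09). These 4 genes were the LINC genes called higher in both lines.

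LINC02489 and LINC02747 were called lower in both lines. LINC02489 at chr11:46254867-46274427 had 2.71, 2.60 and 2.10 CPM in parental cells, 0.429, 0.377 and 0.876 in LIM1215-R1 and 0.357, 0.434 and 0.457 in LIM1215-R2. It fell by 2.12 on the log2 scale in LIM1215-R1 (SE 0.313, adjusted p = 3.91e-06) and by 2.55 in LIM1215-R2 (SE 0.332, adjusted p = 5.43e-07), the largest decrease of the 118 LINC genes in both lines. It rests on 169 counts in all.

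LINC02747 carries the older names CUPID1 and CUPID2, given to RNAs of a breast cancer risk region upstream of the cyclin D1 gene CCND1. Its CPM was 6.49, 7.66 and 6.57 in parental cells, 2.39, 2.13 and 1.69 in LIM1215-R1 and 1.61, 1.67 and 1.44 in LIM1215-R2. It fell by 1.73 (SE 0.176, adjusted p = 7.40e-09) and 2.12 (SE 0.185, adjusted p = 3.67e-10) on the log2 scale. CCND1, which drives entry into S phase and is named after its values were seen, lies 159577 bases away on the other strand and moved the other way. It rose from 1100 ± 19.1 CPM in parental cells to 1498 ± 4.93 for LIM1215-R1 and 1566 ± 18.0 for LIM1215-R2 (SD, n = 3), with log2 fold changes of 0.45 ± 0.0327 (SE, adjusted p = 1.16e-11) and 0.51 ± 0.0327 (adjusted p = 6.83e-13).

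**Figure D2:**
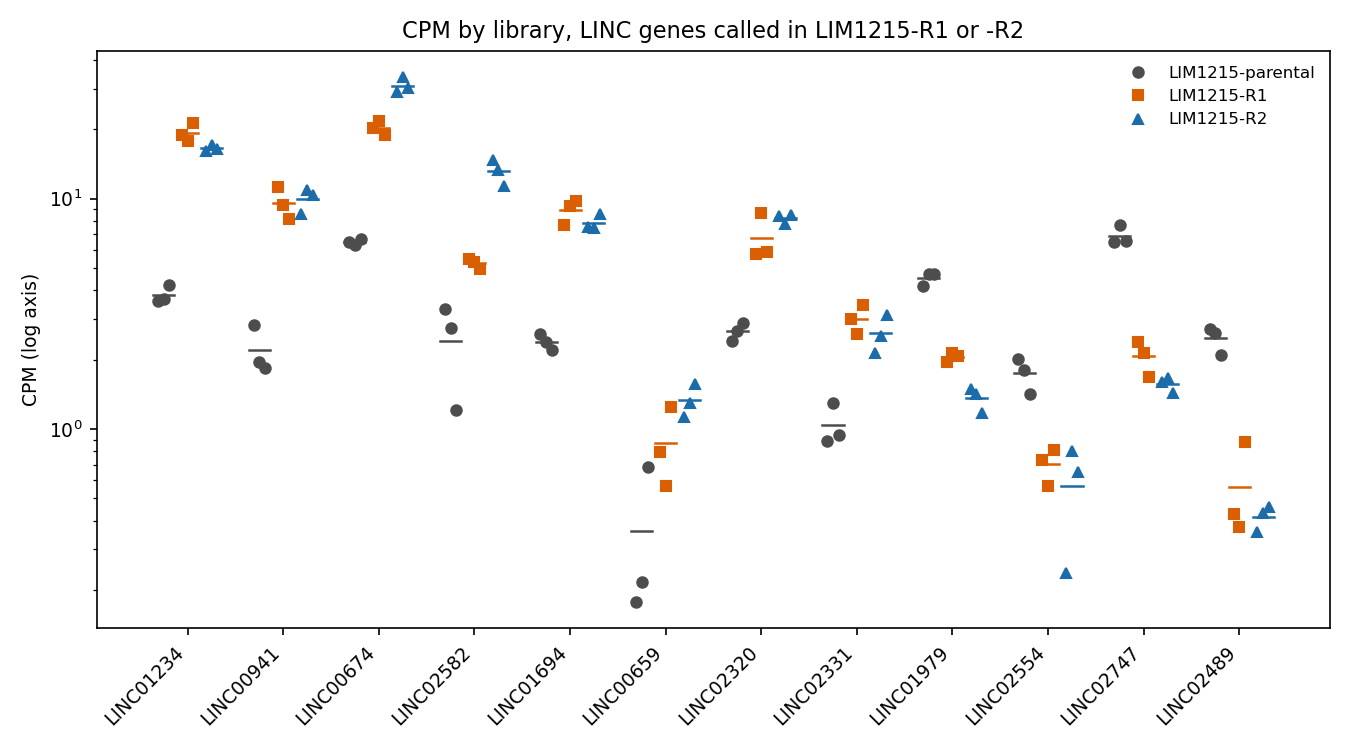
CPM of the 12 called LINC genes in each library (y axis, log scale), ordered by the mean of their log2 fold changes, with 3 libraries per line as points and the mean as a bar. Of the 12 genes, LINC00659 is the one in which a resistant library lies within the parental range.

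In LIM1215-R1 alone, LINC02331 was called. Its CPM was 0.885, 1.30 and 0.946 in parental cells, 3.01, 2.57 and 3.44 in LIM1215-R1 and 2.14, 2.54 and 3.14 in LIM1215-R2. Both resistant lines stood above the parental one, and the gene rose in both, by 1.54 ± 0.248 (adjusted p = 1.30e-05) and 1.33 ± 0.253 (adjusted p = 1.33e-04) on the log2 scale. The call in LIM1215-R1 was lost without parental replicate 1, parental replicate 3 or LIM1215-R1 replicate 3, when the log2 fold change was 1.44, 1.48 and 1.44. The resistant lines differed by -0.21, with a 95% interval from -0.65 to 0.22, so the call in 1 line did not show a difference between them.

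In LIM1215-R2 alone, 5 LINC genes were called, of which LINC02582, LINC00659 and LINC02320 were higher. Of the 5, only LINC02582 also passed in the test of LIM1215-R2 against LIM1215-R1. LINC02582 at chr18:73324941-73349889 had 3.31, 2.75 and 1.21 CPM in parental cells, 5.46, 5.34 and 4.94 in LIM1215-R1 and 14.8, 13.4 and 11.4 in LIM1215-R2. The levels stepped up from line to line without overlap. The log2 fold change was 1.15 ± 0.220 in LIM1215-R1 (adjusted p = 1.29e-04) and 2.48 ± 0.192 in LIM1215-R2 (adjusted p = 3.50e-11), the largest increase of the 118 LINC genes in that line.

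LINC02320 had 2.42, 2.67 and 2.89 CPM in parental cells, 5.77, 8.66 and 5.88 in LIM1215-R1 and 8.44, 7.80 and 8.49 in LIM1215-R2. Replicate 2 of LIM1215-R1 lay above every LIM1215-R2 library and the other 2 lay below them. The gene rose by 1.34 ± 0.175 (adjusted p = 5.59e-07) and 1.63 ± 0.170 (adjusted p = 1.19e-08). LINC00239, named after its values were seen, overlaps it on the other strand and rose as well, by 1.13 ± 0.301 (adjusted p = 0.00365) in LIM1215-R1 and 1.04 ± 0.304 (adjusted p = 0.00919) in LIM1215-R2. Counting used strand.

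LINC00659, studied in colon cancer, was the least counted of the called genes with 125 counts. Its CPM was 0.177, 0.217 and 0.683 in parental cells, 0.798, 0.565 and 1.25 in LIM1215-R1 and 1.13, 1.30 and 1.57 in LIM1215-R2. Parental library 3 lay inside the range of LIM1215-R1 and below that of LIM1215-R2. The log2 fold change was 1.79 ± 0.426 in LIM1215-R2 (adjusted p = 0.0015), and 1.19 ± 0.458 in LIM1215-R1, which did not pass (adjusted p = 0.0435). Without parental replicate 1 the value in LIM1215-R2 was 1.45 with an adjusted p of 0.0143, and without LIM1215-R2 replicate 3 it was 1.66 with 0.0107, so that the call was lost in both. Without parental replicate 3 the gene passed in LIM1215-R1, with 2.12 and an adjusted p of 0.00469.

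LINC01979 and LINC02554 were called lower in LIM1215-R2, the latter being named here after its values were seen. LINC01979 had 4.19, 4.70 and 4.73 CPM in parental cells, 1.96, 2.13 and 2.07 in LIM1215-R1 and 1.49, 1.43 and 1.18 in LIM1215-R2. It fell by 1.14 (SE 0.187, adjusted p = 1.69e-05) and 1.73 (SE 0.201, adjusted p = 7.72e-08) on the log2 scale.

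LINC01978, named after its values were seen, lies within the span of LINC01979 on the other strand and moved the opposite way. Its CPM was 3.48, 3.18 and 3.31 in parental cells, 5.77, 5.90 and 5.26 in LIM1215-R1 and 4.40, 5.51 and 4.44 in LIM1215-R2. It rose by 0.76 ± 0.157 in LIM1215-R1 (adjusted p = 3.26e-04), while 0.52 ± 0.161 in LIM1215-R2 did not pass (adjusted p = 0.0131).

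LINC02554 at chr22:27310651-27317840 had 2.01, 1.81 and 1.42 CPM in parental cells, 0.736, 0.565 and 0.814 in LIM1215-R1 and 0.238, 0.805 and 0.653 in LIM1215-R2. The parental line stood above both others. It fell by 1.29 (SE 0.335, adjusted p = 0.00305) and 1.62 (SE 0.350, adjusted p = 5.81e-04). The call in LIM1215-R2 was lost without parental replicate 1 (-1.49) or LIM1215-R2 replicate 1 (-1.24), and the value in LIM1215-R1 no longer passed without parental replicate 1 (adjusted p = 0.0199) or LIM1215-R1 replicate 2 (0.0158), nor with DESeq2 on all libraries (0.0142).

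For 9 of the 12 called genes, the nearest protein-coding gene lay within 100000 bases and could be tested. All 9 of these neighbours had a change of the same sign as the LINC gene in both lines. In LIM1215-R1 all 9 neighbours passed and in LIM1215-R2 5 did. Among protein-coding genes that passed in the respective line, 38.5% and 33.8% had a nearest coding gene that passed, and 60.4% and 60.1% one with a change of the same sign. Of the LINC genes that did not pass and had a tested neighbour within this distance, 73.7% and 62.9% shared its sign. Of those that passed at any size, 76.0% and 85.0% did. Neighbouring genes are not independent, and the sharing of sign was not tested.

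The closest of these pairs was LINC02489 and CREB3L1, which encodes a transcription factor held in the membrane of the endoplasmic reticulum. The genes lie 3235 bases apart on opposite strands and point away from each other. CREB3L1 had 69.3 ± 4.26 CPM in parental cells, 13.7 ± 1.76 in LIM1215-R1 and 5.73 ± 0.612 in LIM1215-R2 (SD, n = 3). It fell by 2.33 (SE 0.0865, adjusted p = 4.75e-18) and 3.59 (SE 0.0996, adjusted p = 1.16e-20) on the log2 scale, and was called in both lines as LINC02489 was.

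LINC00659 lies 11350 bases from NTSR1, the gene of a neurotensin receptor, on the other strand. NTSR1 had no count in the parental libraries, 0.187 ± 0.0642 CPM in LIM1215-R1 and 1.45 ± 0.345 in LIM1215-R2. It was called higher in both (adjusted p = 0.00642 and 8.85e-08), and no fold is given against 0 counts. A level of 3 counts was 0.182 to 0.186 CPM in the LIM1215-R1 libraries, so the call in that line rests on few counts.

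LINC02331 lies 98910 bases from BMP4, which encodes a secreted ligand of the BMP pathway. BMP4 rose from 396 ± 14.6 CPM in parental cells to 754 ± 29.6 in LIM1215-R1 and 802 ± 17.4 in LIM1215-R2, with log2 fold changes of 0.93 ± 0.0407 (SE, adjusted p = 1.92e-16) and 1.02 ± 0.0408 (adjusted p = 2.63e-17). For the other 6 pairs the coding gene had the smaller change. CAPRIN2 beside LINC00941, a gene of an RNA-binding protein, rose by 0.33 and 0.76, and PPP2R5C beside LINC02320, a subunit of phosphatase PP2A, by 0.31 and 0.54. KPNA2 beside LINC00674, RBM19 beside LINC01234 and SLC19A1 beside LINC01694 rose by 0.33, 0.27 and 0.25 in LIM1215-R1, with 0.13, 0.18 and 0.17 in LIM1215-R2, which did not pass. TBC1D16 beside LINC01979 fell by 0.22 in LIM1215-R1, and its -0.15 in LIM1215-R2 did not pass.

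**Figure D3:**
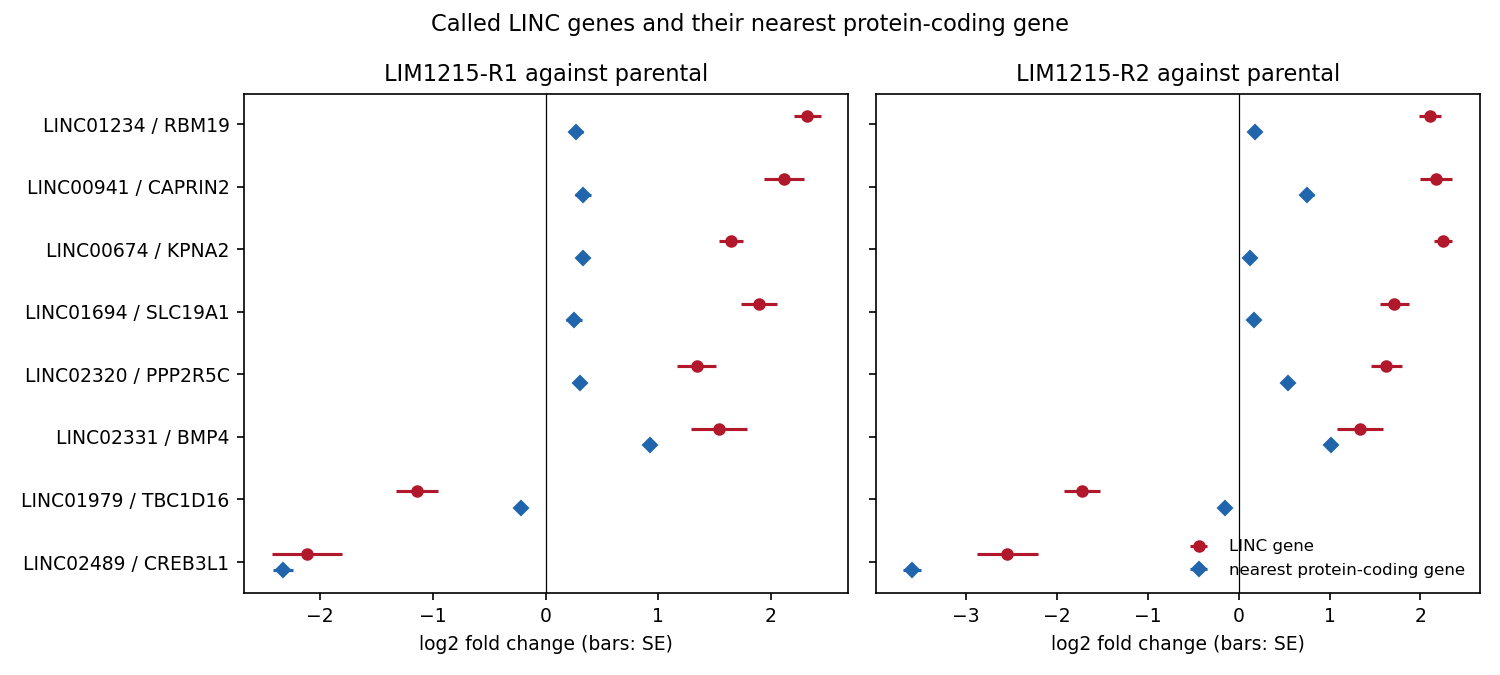
Log2 fold change against parental cells (x axis, bars show the SE) of 8 called LINC genes (circles) and of the nearest protein-coding gene within 100000 bases (diamonds), for LIM1215-R1 (left) and LIM1215-R2 (right). Each pair lies on the same side of 0, and CREB3L1 is the coding gene with a larger value than its LINC gene. NTSR1, with no parental count, is left out.

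Not every pair moved in this way. Of the LINC genes that passed in LIM1215-R1, 25 had a tested neighbour within the window, of which 18 passed, 16 in the same direction and 2 in the other. In LIM1215-R2 it was 9 of 20, with 8 in the same direction. Of the LINC genes that did not pass, 25 of 57 (43.9%) and 24 of 62 (38.7%) had a neighbour that did.

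LINC02035, LINC02535 and their neighbours are named after their values were seen and show both kinds. LINC02035 fell from 16.9 ± 1.24 CPM in parental cells to 6.84 ± 1.41 and 7.07 ± 0.552 in LIM1215-R1 and LIM1215-R2, by 1.30 and 1.26 on the log2 scale, and SLC49A4 at 5374 bases on the same strand fell by 0.99 and 1.01. LINC02535 fell from 2.84 ± 0.347 CPM to 1.45 ± 0.372 and 1.16 ± 0.103, by 0.97 and 1.30. NT5E, the gene of the ectoenzyme CD73, lies 45281 bases from it on the other strand and rose by 2.26 and 3.35, from 1.87 ± 0.590 to 9.22 ± 1.34 and 19.7 ± 1.36 CPM.

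A list of 30 LINC genes studied in epithelial cancers was described as a group. It had 17 members among the genes tested and 11 among the 118. Of the 11, 4 rose and 1 fell in LIM1215-R1, with 2 called, and 7 rose and 1 fell in LIM1215-R2, with 3 called. That is 45.5% and 72.7% passing, against 27.3% and 23.8% of all genes tested, and 18.2% and 27.3% called, against 5.14% and 4.82%. Among the genes with at least 90 counts, 36.6% and 31.9% passed, and 4.99% and 4.83% were called. The 11 had median log2 fold changes of 1.01 and 1.18, beside -0.01 and 0.00 over all genes. The list was drawn up without a reference source and with earlier results of these data known, so its shares are only a description. Of the 17 tested, 4 rose and 2 fell in LIM1215-R1, with 3 called, and 7 rose and 1 fell in LIM1215-R2, with 3 called, with medians of 0.80 and 1.03. The further decrease was that of LINC00472, named after its values were seen, which has 15 counts and was called lower in LIM1215-R1 (adjusted p = 0.00544). It had 0.177, 0.289 and 0.315 CPM in parental cells and no count in LIM1215-R1. The list holds LINC01234, LINC00941 and LINC00659, described above.

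LINC01559 had 4.25, 2.96 and 3.15 CPM in parental cells, 6.99, 8.41 and 7.82 in LIM1215-R1 and 7.85, 8.05 and 7.71 in LIM1215-R2, and rose by 1.16 ± 0.152 and 1.18 ± 0.152 (adjusted p = 6.33e-07 and 4.29e-07). LINC01315 had 1.12, 1.81 and 1.42 CPM in parental cells, 4.05, 2.89 and 3.76 in LIM1215-R1 and 2.56, 2.97 and 3.27 in LIM1215-R2, and rose by 1.31 ± 0.225 and 1.03 ± 0.232 (adjusted p = 3.21e-05 and 9.11e-04). Neither reached 1.5, and in both the resistant lines overlapped each other.

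LINC01133, an RNA known from colorectal cancer as a binding partner of the splicing factor SRSF6, was the only one of the 11 that fell. Its CPM was 7.44, 7.15 and 5.94 in parental cells, 4.17, 3.83 and 4.51 in LIM1215-R1 and 2.14, 3.16 and 3.53 in LIM1215-R2. It fell by 0.71 (SE 0.163, adjusted p = 0.00101) and 1.22 (SE 0.173, adjusted p = 2.26e-06).

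LINC00511 and LINC00920 passed in LIM1215-R2 and not in LIM1215-R1. LINC00511 had 0.413, 0.939 and 0.735 CPM in parental cells, 1.29, 1.63 and 1.25 in LIM1215-R1 and 2.02, 2.11 and 1.44 in LIM1215-R2, with log2 fold changes of 1.01 ± 0.329 (adjusted p = 0.0165) and 1.43 ± 0.314 (adjusted p = 6.56e-04). Without parental replicate 2 it also passed in LIM1215-R1 (1.25, adjusted p = 0.00814). LINC00920 had 0.649, 0.867 and 0.683 CPM in parental cells, 1.29, 1.57 and 0.939 in LIM1215-R1 and 1.61, 1.80 and 1.70 in LIM1215-R2, with 0.80 ± 0.315 (adjusted p = 0.0486) and 1.22 ± 0.299 (adjusted p = 0.00204). Its value in LIM1215-R2 no longer passed without parental replicate 1 (adjusted p = 0.0116) or parental replicate 3 (0.0117), nor with DESeq2 on all libraries (0.0109). The resistant lines differed by 0.42 in each, with 95% intervals from -0.15 to 0.99 and from -0.14 to 0.98, so a difference between them was not shown.

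LINC00673, LINC00662 and LINC00467 did not pass in either line. LINC00673, known from a pancreatic cancer risk region, lies 5237 bases from LINC00511 on the same strand. Its CPM was 21.7, 29.0 and 25.0 in parental cells, 25.1, 29.3 and 29.3 in LIM1215-R1 and 23.1, 26.6 and 25.2 in LIM1215-R2, with log2 fold changes of 0.15 and -0.01. LINC00662 had -0.07 ± 0.279 and 0.36 ± 0.265, and LINC00467, known as a target of MYC family factors, -0.20 ± 0.233 and -0.07 ± 0.230.

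**Figure D4:**
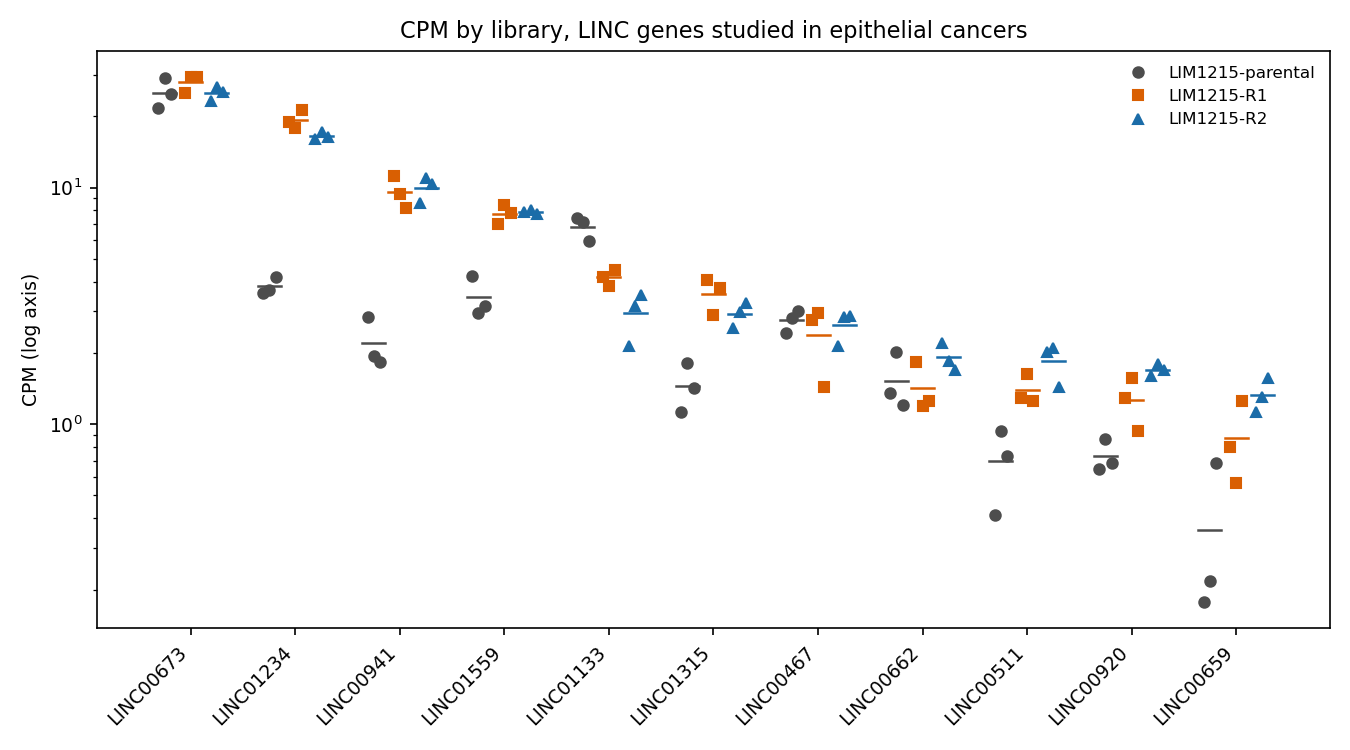
CPM of the 11 LINC genes of the epithelial cancer list in each library (y axis, log scale), with 3 libraries per line as points and the mean as a bar. LINC01133 is the gene whose parental libraries lie above the resistant ones, while those of LINC00673, LINC00467 and LINC00662 mix with them. In LINC00659, parental replicate 3 lies above LIM1215-R1 replicate 2.

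Of the 10 most counted LINC genes, LINC00674 and LINC01234 were called in both lines, as given above, and none of the other 8 was called in either. LINC01224 fell in both lines, by 0.39 (SE 0.0944, adjusted p = 0.00145) and 0.41 (SE 0.0946, adjusted p = 0.001). LINC00641 fell by 0.37 in LIM1215-R1 (SE 0.0971, adjusted p = 0.00348), and its -0.10 in LIM1215-R2 did not pass. LINC01128 rose by 0.42 ± 0.0993 in LIM1215-R2 (adjusted p = 0.00157), and its 0.29 in LIM1215-R1 did not pass (adjusted p = 0.0221). Each of these 4 passing values was lost when at least 1 library was left out, with adjusted p from 0.0101 to 0.0331. They were lost for LINC01224 without parental replicate 3 or LIM1215-R1 replicate 1 in LIM1215-R1 and without LIM1215-R2 replicate 1 in LIM1215-R2, and for LINC01128 without parental replicate 3 or LIM1215-R2 replicate 2. For LINC00641 they were lost without parental replicate 1 or 3 and without LIM1215-R1 replicate 2 or 3. LINC01963 stayed short of the threshold in LIM1215-R1, with 0.33 ± 0.107 (adjusted p = 0.0151).

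In 9 LINC genes the 95% intervals of both log2 fold changes lay within 0.5 of 0 in either direction, which bounds the change. The 4 most counted of these were LINC00673, LINC02693, LINC00205 and LINC00294. LINC00205 had 22.0 ± 0.902 CPM in parental cells, 20.5 ± 1.24 in LIM1215-R1 and 22.1 ± 0.416 in LIM1215-R2, with intervals from -0.27 to 0.07 and from -0.16 to 0.17. LINC02693 had 21.6 ± 1.05, 25.0 ± 1.61 and 25.7 ± 2.30 CPM, with intervals from 0.03 to 0.38 and from 0.08 to 0.43. For LINC00294 the intervals ran from -0.32 to 0.13 and from -0.43 to 0.02.

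LIM1215-R2 was also compared with LIM1215-R1. No LINC gene was called, against 0.764% of all genes tested (0.215% higher and 0.55% lower), and DESeq2 called none as well. In the edgeR test, 18 of the 118 had an unadjusted p under 0.05. Over all 19102 genes tested this held for 4700, and among the 13412 with at least 90 counts for 4256. At any size 4 passed (3.39%, against 7.16%), all of them higher in LIM1215-R2 (3.39% of all genes, with 3.77% lower).

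LINC02582 and LINC00674, described above, were higher in LIM1215-R2 by 1.33 ± 0.168 (adjusted p = 2.31e-06) and 0.61 ± 0.0844 (adjusted p = 9.32e-06), on top of a rise over parental cells in both lines. In LINC00342 and LINC01000 the difference came with a fall in LIM1215-R1 alone. LINC00342 had 8.56, 8.16 and 9.19 CPM in parental cells, 5.21, 5.52 and 5.88 in LIM1215-R1 and 9.75, 9.54 and 10.1 in LIM1215-R2, a difference of 0.82 ± 0.122 between the resistant lines (adjusted p = 2.29e-05). Its nearest coding gene ANKRD36C, which belongs to a family of near-identical copies and is named, like LINC00342, after its values were seen, had -0.55 in LIM1215-R1 and 0.10 in LIM1215-R2, and how reads of such copies were assigned was not tested.

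LINC01000 had 35.5, 42.0 and 44.96 CPM in parental cells, 27.5, 31.4 and 29.6 in LIM1215-R1 and 40.4, 39.5 and 39.7 in LIM1215-R2. It fell by 0.47 in LIM1215-R1 (SE 0.0805, adjusted p = 3.36e-05), its -0.03 in LIM1215-R2 did not pass, and the resistant lines differed by 0.43 ± 0.0808 (adjusted p = 4.41e-04). The libraries of LIM1215-R1 lay below those of both other lines.

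**Figure D5:**
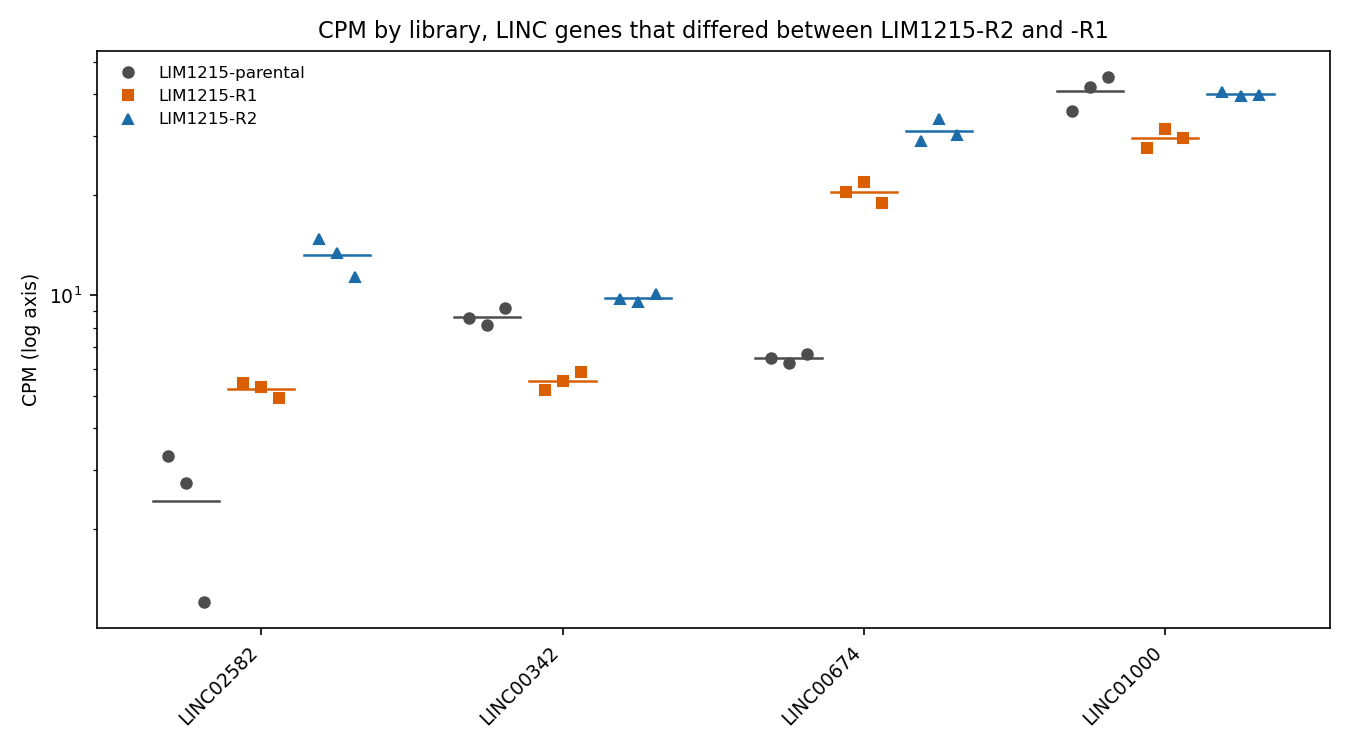
CPM of the 4 LINC genes that passed the test between LIM1215-R2 and LIM1215-R1 in each library (y axis, log scale), with 3 libraries per line as points and the mean as a bar. LINC02582 and LINC00674 are lowest in parental cells, and LINC00342 and LINC01000 are lowest in LIM1215-R1.

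At the edge of the selection, LINC02609 with 91 counts, LINC00869 with 93 and LINC01593 with 97 were just included, and LINC00638 with 88, LINC00513 with 87 and LINC01929 with 87 were just left out. Mean CPM in parental, LIM1215-R1 and LIM1215-R2 cells was 0.838, 0.352 and 0.655 for LINC02609, 0.462, 0.889 and 0.542 for LINC00869 and 0.956, 0.373 and 0.638 for LINC01593. It was 0.864, 0.518 and 0.391 for LINC00638 and 0.241, 0.745 and 0.813 for LINC00513. LINC01929 had no count in the parental libraries, 0.333 CPM in LIM1215-R1 and 1.47 in LIM1215-R2.

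Among the 172 LINC genes with 10 to 89 counts, 11 were called in LIM1215-R1 (6.4%, against 5.14% of all genes tested), 12 in LIM1215-R2 (6.98% against 4.82%) and 2 between the resistant lines (1.16% against 0.764%). Of 24 tested lncRNA genes with names of their own, 5 rose and 4 fell in LIM1215-R1 (37.5%, against 27.3% of all genes tested). In LIM1215-R2, 6 rose and 4 fell (41.7% against 23.8%). All 24 had at least 90 counts, and of the genes with that many 36.6% and 31.9% passed in the respective lines. The 3 given here were named after their values were seen. CYTOR, an RNA studied for its part in cell migration, was called higher in both lines, with 1.32, 8.07 and 7.02 mean CPM in the 3 lines and log2 fold changes of 2.60 and 2.40. UCA1, first described in bladder cancer, rose by 1.54 and 1.30, and was called in LIM1215-R1. MALAT1, the nuclear speckle RNA, had 161, 170 and 182 CPM and did not pass in either line (0.08 and 0.18).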

How the data were processed

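Poly(A) RNA of the parental line and both resistant lines, 3 libraries each, was sequenced from stranded libraries in paired ends. Per the submitters' processing notes and the study's methods, the authors used STAR with hg38 for alignment and HTSeq 0.9.1 for counting on the reverse strand. The deposited values are raw counts per gene, with no normalization. The annotation behind them is not given in the sources used here. Libraries were grouped by the line named in their titles.

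The 19102 genes with 10 or more counts in all were scaled by TMM (factors 0.984 to 1.02) and tested with edgeR 4.0.16 in R 4.3.3, using the two-sided quasi-likelihood test in 1 model of the 3 lines. Adjustment was by Benjamini-Hochberg over all genes tested. Each SE is the log2 fold change divided by the square root of its F statistic. The procedure was tested on simulated counts. Alternatives were other filters, size factors and the Wald test of DESeq2 1.42.0, library totals, fits of 6 libraries, a replicate block, each library left out, other call thresholds and other minimum counts for membership.

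The LINC genes, the lists and the tests were chosen with earlier results of these data known. Named were the 10 genes with the highest CPM, since RefSeq exon lengths were not at hand, up to 8 per direction called in both resistant lines, the 4 per line with the largest change among those called in 1 line, up to 5 per direction called between the resistant lines, any called in opposite directions, 3 on each side of the 90-count minimum, the list of cancer LINC genes, the 4 most counted with both intervals within 0.5 of 0, and the nearest coding gene within 100000 bases of a called one. Others are marked as named after their values were seen. Positions, neighbours and promoters came from RefSeq (GRCh38.p14), and exon lengths from GENCODE release 44.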

Additional observations from a re-analysis of the deposited data

Results flagged for a closer look

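In 4 LINC genes the test of LIM1215-R2 against LIM1215-R1 itself passed, which flagged them as responses that differ between the resistant lines. LINC02582 was higher in LIM1215-R2 by 1.33 on the log2 scale and LINC00674 by 0.61, and both also rose over parental cells in each line. LINC00342 was higher by 0.82 and LINC01000 by 0.43, and both fell in LIM1215-R1, while their values in LIM1215-R2 against parental cells did not pass. With 3 libraries per line, single libraries that stand apart were not looked for.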

How the results depend on the processing

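Calls were counted again under each alternative. A test against the threshold of 1.5 itself, in place of a cutoff on the estimate, left 1 LINC gene called in LIM1215-R1, 4 in LIM1215-R2 and 1 in both. With a log2 change of at least 1 there were 17, 22, 1 between the resistant lines and 16 in both, and at any size 34, 27, 4 and 22. Membership from 45 counts gave 11 and 18 calls, with 2 between the resistant lines, and summed levels of 523.2, 529.9 and 569.4 CPM in LIM1215-parental, LIM1215-R1 and LIM1215-R2. Membership from 180 counts gave 471.8, 481.2 and 516.4 CPM. These alternatives differ by construction in what is counted.

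Leaving out 1 library at a time gave 6 to 8 calls in LIM1215-R1, 9 to 13 in LIM1215-R2 and 6 to 7 in both. The replicate block gave 7, 11, 0 and 6 calls, as did the fit without it, and changed 1 named value, LINC01963 in LIM1215-R1, which then passed (0.34, adjusted p = 0.00377 in edgeR). Libraries of the same number did not deviate together in every pair (correlations of -0.106 to 0.274), so the numbers were not taken to pair them. Of the called genes, LINC02489, LINC00659 and LINC02554 could not be tested where at least 10 counts were asked of every library.

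Among the named genes, the sign changed only for values that had not passed. In LIM1215-R2, LINC00205 was -0.0098 with library totals and LINC00673 was 0.0018 with no filter. With 1 library left out, values ran from -0.0252 to 0.0364 for LINC00205, -0.1563 to 0.0594 for LINC00467, -0.1037 to 0.0965 for LINC00673, -0.1271 to 0.0467 for LINC01000 and -0.082 to 0.1095 for LINC01963. In LIM1215-R1 they ran from -0.3825 to 0.0557 for LINC00467 and from -0.2908 to 0.1604 for LINC00662. The cause was not tested. Of 936 alternative values 897 kept direction and side of the threshold, 17 no longer passed, 6 newly passed and 16 changed sign. In the 60 LINC genes with fewest counts the median SE of the log2 fold change was 0.321 in LIM1215-R1 and 0.325 in LIM1215-R2, against 0.117 and 0.113 in the 21 with most, so smaller changes were detectable in the latter.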
